A study of Mus musculus with 4 samples.

Results

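The potassium channel genes of the mouse were taken as every protein-coding gene whose symbol starts with Kcn, which gave 94 of the 21976 protein-coding genes listed, and their transcription levels were compared between cultures of PFC tissues with FGF2 and cultures without it. Of these 94 genes, 74 had more than 10 counts in at least 1 library and were treated as measured, 20 did not, and 73 passed the expression filter and were tested. FGF2 is a fibroblast growth factor often added to cultures of neural cells, and the comparison asks how it changes gene expression in cortical cultures. All 4 libraries came from C57BL/6 mice of WT genotype: cells of the prefrontal cortex (PFC) of P0 pups were dissociated with papain and grown for 10 days in neurobasal medium with B27, and 2 libraries were made from cultures that received 5 ng/mL of FGF2 and 2 from cultures with no FGF2. The cultures were sequenced in bulk, so that neurons and glia are mixed in every value. The labels do not say whether the libraries of a group came from separate cultures, and the study's methods, read plainly, make them technical replicates. The p-values then measure only the spread between these libraries, which may hold no variation between cultures.

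Potassium channels let potassium ions leave or enter the cell along their gradient, and in neurons they set the resting potential, end the action potential and limit repetitive firing. Voltage-gated members are built from pore-forming subunits of the Kv, EAG and KCNQ groups with accessory subunits that change their gating or traffic. Inward rectifiers and tandem-pore-domain channels carry the resting conductance, also in astrocytes, where Kcnj10 (Kir4.1) clears potassium from the extracellular space, and a further group opens with calcium or sodium inside the cell.

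With FGF2, 29 of the 73 tested Kcn genes fell and 5 rose at an adjusted p below 0.05 (edgeR quasi-likelihood test with Benjamini-Hochberg adjustment over 17144 genes), and 39 did not pass. Over all genes tested, 19.9% fell and 20.7% rose, whereas among Kcn genes the shares were 39.7% and 6.85%. Of the 13703 protein-coding genes tested, 23.2% fell and 22.7% rose. At a mean of at least 5 CPM, 49.1% of 53 Kcn genes fell and 7.55% rose, beside 24.3% and 23.9% of all such genes. Counts within single families, given further on, rest on 10 or fewer tested genes each and were not tested against these shares. The median log2 fold change of the 73 genes, FGF2 over no FGF2, was -0.31, beside -0.00082 over all genes, and 57 of the 73 values were below 0. Both libraries with FGF2 lay below both libraries without it for 41 Kcn genes (33.4% of all genes tested) and above them for 8 (33.6% of all genes tested). A fall with a log2 fold change below -1 was found for 7 Kcn genes of the 73, beside 2.38% of all genes. With DESeq2 in place of edgeR 24 Kcn genes were lower and 3 higher, beside 2143 and 2313 of all 17144 genes.

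**Figure D1:**
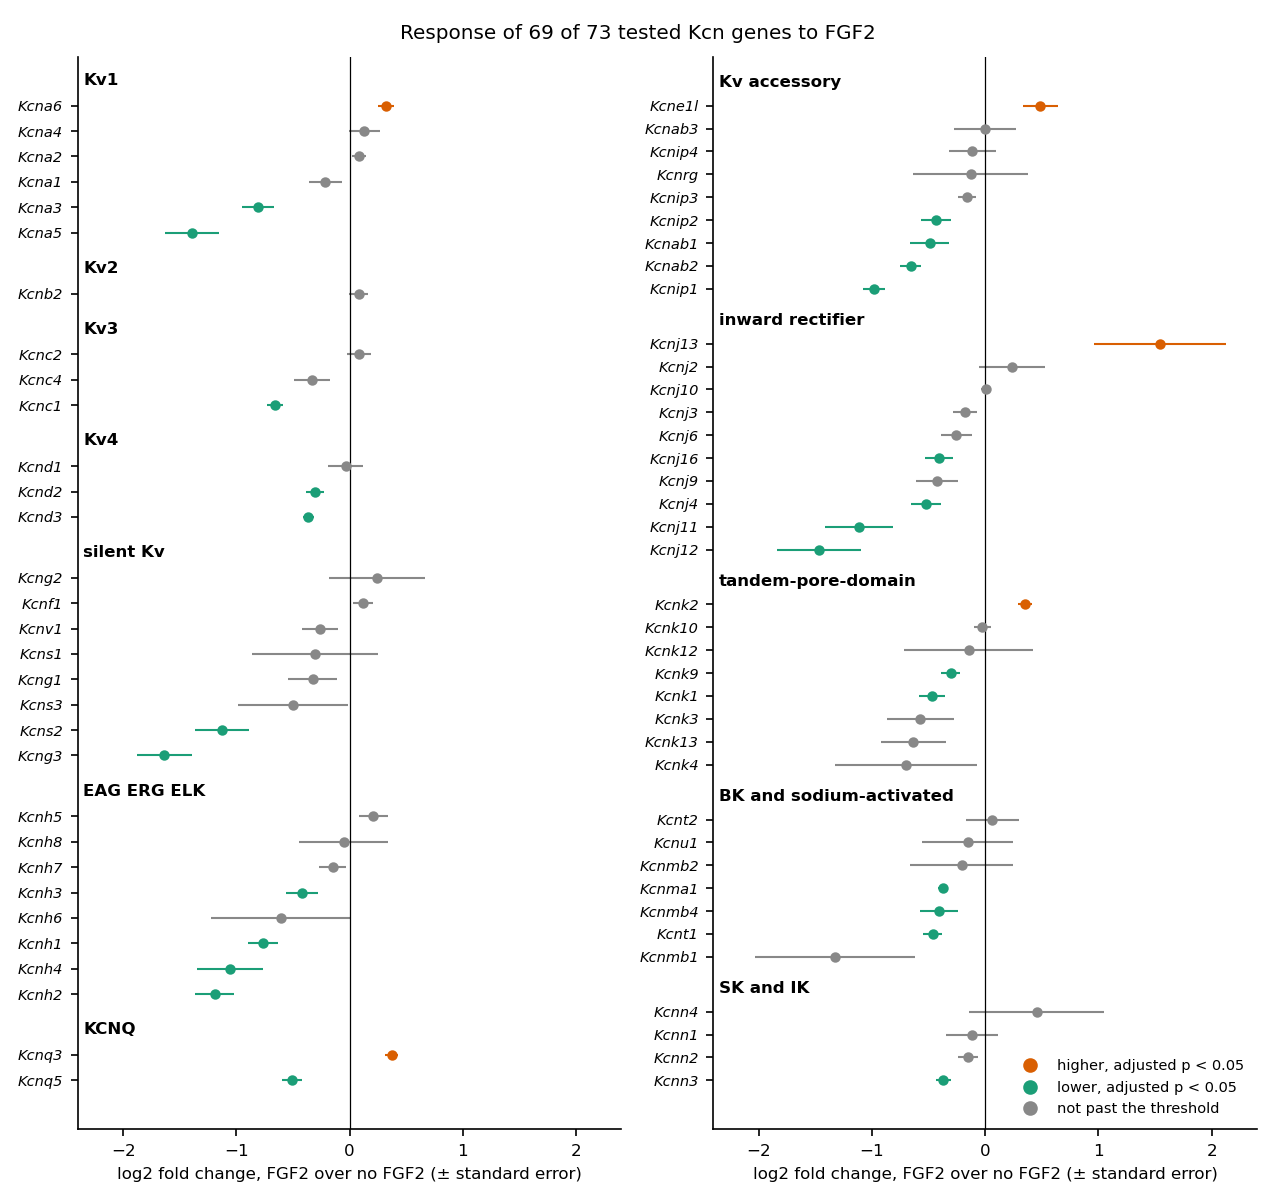
Log2 fold change (FGF2 over no FGF2, x axis) of 69 of the 73 tested Kcn genes, grouped by family, with bars of 1 standard error; orange marks the 5 genes that rose, green 26 that fell and grey 38 that did not pass. Most points lie left of 0, from -1.63 for Kcng3 to 1.55 for Kcnj13.

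Markers of cell types moved with the treatment too. All 6 neuron markers fell, and their summed level was 2669 and 2706 CPM (a gene's reads relative to the TMM-adjusted library size) with FGF2 and 3712 and 3688 CPM without it. All 6 markers of inhibitory neurons (IN) also fell, from a sum of 1050 and 1072 CPM to 626 and 641 CPM, whereas 3 of the 6 markers of excitatory neurons (EN) fell, with sums of 216 and 207 CPM with FGF2 and 242 and 254 CPM without it. Of the astrocyte markers, 7 of 8 rose (12129 and 12017 CPM with FGF2 against 7296 and 7248 CPM), and all 8 tested oligodendrocyte lineage markers rose (1792 and 1803 CPM against 547 and 557 CPM). The summed level of all Kcn genes was 2748 and 2729 CPM with FGF2 and 3275 and 3232 CPM without it. The ratio of that sum to the summed neuron markers was 1.03 and 1.01 with FGF2 and 0.882 and 0.876 without it, so the Kcn sum was lower by less than the neuron marker sum. Both sums lean on a few genes. Map2, the neuron marker with the smallest fall (log2 fold change -0.32, median of the 6 -0.48), held 1576 of 2687 CPM with FGF2. The Kcn sum includes Kcnj10, a gene also of astrocytes, at a mean of 278 CPM in both groups. In bulk samples, fewer cells of a type and less RNA per cell cannot be told apart, and the part of the marker shifts in the Kcn values was not tested. Microglia markers summed to 12.8 CPM with FGF2 and 5.72 CPM without it, and endothelial markers to 3.86 and 5.79 CPM with Cldn5 at 0 in every library. Mural and fibroblast markers summed to 63.5 and 46.3 CPM, of which Pdgfrb held 47.9 and 28.8 CPM. Of the 5 tested genes of that list 2 rose, 2 did not pass and 1, Col1a1, fell (1.79 CPM with FGF2 and 8.21 CPM without it).

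**Figure D2:**
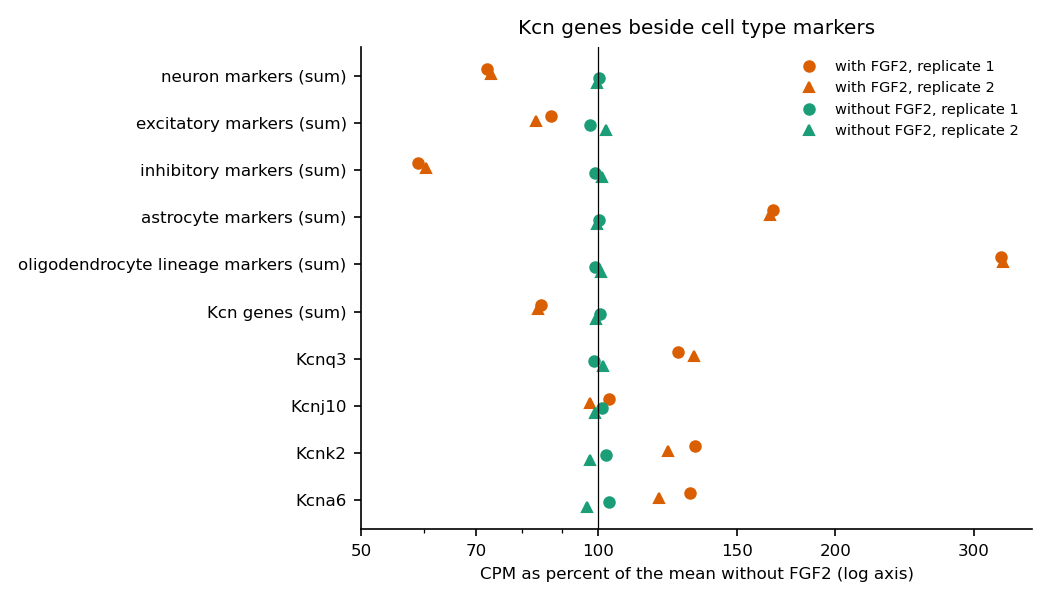
Summed CPM of 5 marker lists and of all Kcn genes, and CPM of 4 Kcn genes, in each of the 4 libraries as percent of the mean without FGF2 (log axis); circles are replicate 1 and triangles replicate 2. The Kcn sum averaged 84.2% with FGF2, the neuron markers 72.6%, the oligodendrocyte lineage markers 325%, Kcnq3 129% and Kcnk2 128%.

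The promoters of members that differed in response are shown because they are the sequences from which these transcripts start. RefSeq promoters (GRCm38.p6) were found for 69 of the 94 members. The 150 bases before a start site, where that window holds no annotated exon, are given 5′ to 3′ on the strand of the gene, with each GC box (GGGCGG on either strand) in capitals, for 4 genes that fell, for Kcnk2, which rose, and for Kcnj10, whose change did not pass the test.
Kcng3 (chr17:83631896-83632045, minus strand): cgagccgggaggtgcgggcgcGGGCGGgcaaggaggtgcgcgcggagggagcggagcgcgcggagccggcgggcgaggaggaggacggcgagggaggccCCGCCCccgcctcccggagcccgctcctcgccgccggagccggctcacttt
Kcnh2 (chr5:24329592-24329741, minus strand): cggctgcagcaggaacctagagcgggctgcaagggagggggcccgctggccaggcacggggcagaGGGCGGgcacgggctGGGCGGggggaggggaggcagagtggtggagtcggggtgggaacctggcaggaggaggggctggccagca
Kcna3 (chr3:107036012-107036161, plus strand): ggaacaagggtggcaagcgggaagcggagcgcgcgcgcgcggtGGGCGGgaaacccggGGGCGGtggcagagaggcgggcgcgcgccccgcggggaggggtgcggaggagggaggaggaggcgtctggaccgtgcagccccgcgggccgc
Kcna5 (chr6:126535556-126535705, minus strand): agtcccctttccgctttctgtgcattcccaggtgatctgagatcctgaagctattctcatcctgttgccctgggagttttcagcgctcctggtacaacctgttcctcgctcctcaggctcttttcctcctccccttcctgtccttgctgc
Kcnk2 (chr1:189402274-189402423, minus strand): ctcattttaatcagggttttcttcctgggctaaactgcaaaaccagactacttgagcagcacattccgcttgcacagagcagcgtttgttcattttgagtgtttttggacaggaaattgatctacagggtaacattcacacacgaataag
Kcnj10 (chr1:172341060-172341209, plus strand): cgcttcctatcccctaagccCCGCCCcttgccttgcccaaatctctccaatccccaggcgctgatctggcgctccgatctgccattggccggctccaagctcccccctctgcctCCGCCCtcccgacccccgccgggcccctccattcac
The windows of Kcng3, Kcnh2, Kcna3 and Kcnj10 each held 2 GC boxes, and those of Kcna5 and Kcnk2 held none. Of the other genes with large falls, the window of Kcnj12 held none either, and of 3 windows of Kcnip1 1 held a GC box, so that windows with and without a box both occurred among genes that fell. The Kcnh2 window lies before an internal start site, inside the span of the gene. In the 250 bases before the start, a GC box was found in 44.7% of the promoters of members (1 per start site) and in 32.7% of all 32851 promoters, and a TATA box (TATAAA on either strand, which cannot overlap a GC box) in 3.19% and 12.4%. An E-box (CACGTG) was also searched for and stood in 6.38% of the promoters of members and 6.02% of all, and a CRE (TGACGTCA) in 0% and 1.55%. GC boxes stood in 15 of the 31 promoters of members that fell and in 2 of the 7 of members that rose. These are counts of start sites and not of genes. Several of the 7 belong to Kcnk2 and none to Kcnq3, so they do not compare genes that rose with genes that fell. The windows of the further Kcnk2 start sites hold annotated exons and are not printed. These letter matches are a description of the windows only.

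Of the KCNQ genes, whose channels carry the slow M current that restrains repetitive firing of neurons, Kcnq3 stood out by its rise. Kcnq3 (ENSMUSG00000056258, mm10 chromosome 15, 65986387 to 66286642) was at 167 and 175 CPM with FGF2 and 130.4 and 134 CPM without FGF2, so that both libraries with FGF2 lay above both without it (log2 fold change 0.37 ± 0.055 (SE), adjusted p = 2.21e-10). Its length-scaled level was 11.6 ± 0.396 with FGF2 and 8.99 ± 0.170 without FGF2 CPM per kilobase of exon (SD, n = 2), a scale on which levels of different genes can be compared. Kcnq5 fell, and Kcnq1 was not measured.

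Among the Kv1 genes, which encode low-threshold channels of axons and nerve terminals, 2 of 6 tested members fell, 1 rose and 3 did not pass. Kcna5 was at 4.30 and 3.15 CPM with FGF2 and 8.66 and 10.8 CPM without FGF2 and fell (log2 fold change -1.39 ± 0.24 (SE), adjusted p = 7.35e-08). Kcna3 was at 10.4 and 16.1 CPM with FGF2 and 23.2 and 23.3 CPM without FGF2 and also fell (log2 fold change -0.81 ± 0.14 (SE), adjusted p = 1.38e-07), the library FGF2 replicate 1 being the lowest. Kcna6, the Kv1 gene with the highest length-scaled level, showed the opposite direction. It was at 97.5 and 89.3 CPM with FGF2 and 77.0 and 72.3 CPM without FGF2 (log2 fold change 0.32 ± 0.072 (SE), adjusted p = 3.73e-05). The main axonal subunits Kcna1 and Kcna2 did not pass the test: Kcna1 was at 16.8 and 15.3 CPM with FGF2 and 17.3 and 19.8 CPM without FGF2 (log2 fold change -0.22, adjusted p = 0.243), and Kcna2 at 124 and 120.4 CPM with FGF2 and 122 and 109 CPM without FGF2 (log2 fold change 0.084, adjusted p = 0.29). The 95% interval of the log2 difference was -0.037 to 0.20 for Kcna2, and a fall of the size measured for Kcna3 lies outside it. Of the exonic length of Kcna6, 39.6% is shared with the antisense gene Gm26673, and since the strand setting of the counting is not stated, reads of the pair cannot be told apart.

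**Figure D3:**
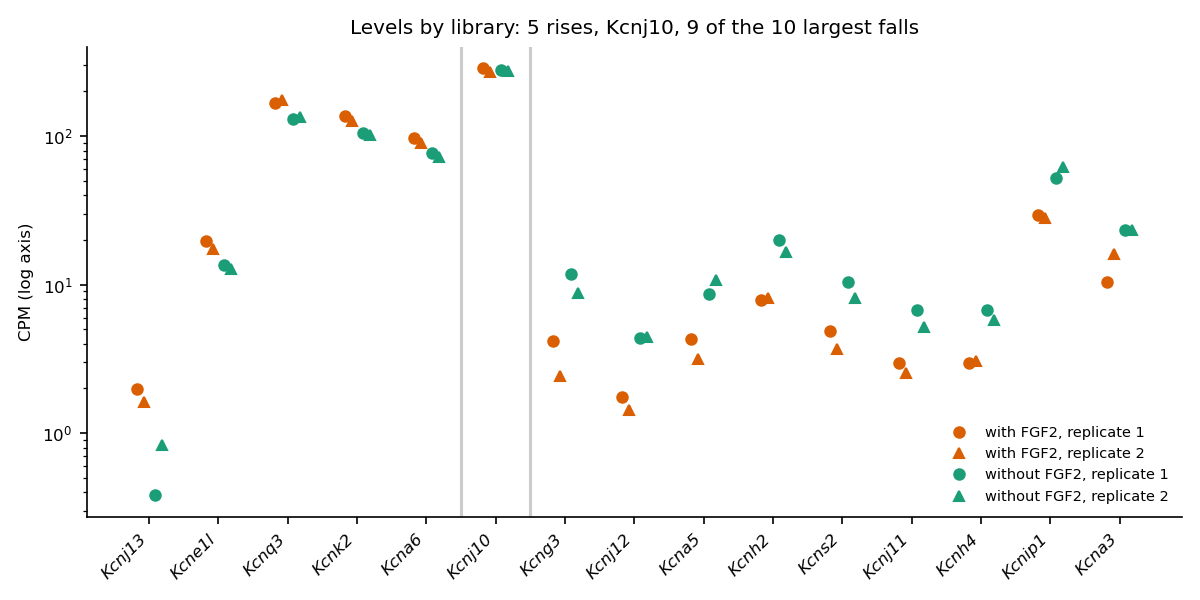
CPM (log axis) of the 5 Kcn genes that rose, of Kcnj10 and of 9 of the 10 with the largest falls in each library; orange marks cultures with FGF2, green those without, circles replicate 1 and triangles replicate 2. Of the genes plotted, the libraries of the groups overlap for Kcnj10 alone, at 271 to 286 CPM. The other genes were drawn because they passed the test, so their separation is no further result. Among all 73 tested Kcn genes, the libraries of 24 overlapped. Of all genes tested, 33.4% lay below with FGF2 and 33.6% above.

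Of the Kv3 genes, whose fast channels serve rapidly firing neurons, Kcnc1 fell. It was at 67.3 and 60.4 CPM with FGF2 and 100.03 and 101 CPM without FGF2 (log2 fold change -0.66 ± 0.073 (SE), adjusted p = 3.73e-18). Kcnc2, the other main Kv3 subunit of fast-spiking IN, did not pass, at 34.5 and 37.4 CPM with FGF2 and 34.9 and 33.2 CPM without FGF2 (log2 fold change 0.08, adjusted p = 0.588, 95% interval -0.13 to 0.29). The 95% interval of Kcnc1 was -0.80 to -0.52, so that the intervals of the pair did not overlap. The Kv4 genes encode the transient A-type current of dendrites, and 2 of 3 fell. Kcnd3 was at 183 and 190.2 CPM with FGF2 and 247 and 235 CPM without FGF2 (log2 fold change -0.37 ± 0.048 (SE), adjusted p = 4.84e-13) and Kcnd2 at 60.8 and 62.6 CPM with FGF2 and 70.7 and 82.0 CPM without FGF2 (log2 fold change -0.31 ± 0.078 (SE), adjusted p = 0.000348). Kcnd2 no longer passed without noFGF2 replicate 2 (log2 fold change -0.20, adjusted p = 0.135 by edgeR).

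Accessory subunits of Kv channels followed no single direction. The Kv4-binding calcium sensor Kcnip1 was at 29.6 and 28.2 CPM with FGF2 and 52.2 and 62.1 CPM without FGF2, and its groups stood well apart (log2 fold change -0.98 ± 0.098 (SE), adjusted p = 1.84e-22). Kcnip3, the accessory gene with the highest length-scaled level, was at 67.4 and 58.5 CPM with FGF2 and 67.6 and 72.9 CPM without FGF2 and did not pass (log2 fold change -0.16, adjusted p = 0.0928), although without FGF2 replicate 1 it did (log2 fold change -0.27, adjusted p = 0.0135 by edgeR). Kcnip4, another member of the same group, was low, at 6.83 and 9.05 CPM with FGF2 and 8.85 and 8.41 CPM without FGF2, and its libraries overlapped between the groups (log2 fold change -0.11, adjusted p = 0.711). Kcnip2, Kcnab1 and Kcnab2 fell. The X-linked gene Kcne1l was at 19.7 and 17.3 CPM with FGF2 and 13.5 and 12.8 CPM without FGF2 and rose (log2 fold change 0.49 ± 0.15 (SE), adjusted p = 0.00459), but it did not pass with DESeq2 (adjusted p = 0.0817), without FGF2 replicate 1 (adjusted p = 0.0794) or without noFGF2 replicate 2 (adjusted p = 0.0647). In all, 4 of the 9 tested accessory genes fell, 1 rose and 4 did not pass.

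Silent subunits form no channel alone and modify Kv2 channels. Kcng3 (ENSMUSG00000045053, chromosome 17, 83585957 to 83631895) had the largest fall of all members, from 11.7 and 8.77 CPM without FGF2 to 4.19 and 2.44 CPM with it (log2 fold change -1.63 ± 0.25 (SE), adjusted p = 3.15e-10). Kcns2 was at 4.85 and 3.66 CPM with FGF2 and 10.5 and 8.13 CPM without FGF2 and fell as well (log2 fold change -1.13 ± 0.24 (SE), adjusted p = 1.18e-05). Both genes are low, and the other 6 tested silent subunits did not pass. Among them Kcnf1, with the highest length-scaled level of this group, was at 53.1 and 48.6 CPM with FGF2 and 49.2 and 44.4 CPM without FGF2 (log2 fold change 0.12, adjusted p = 0.309).

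In the EAG, ERG and ELK group all 8 genes were tested, of which 4 fell and none rose. Kcnh2 (ERG1, ENSMUSG00000038319, chromosome 5, 24319589 to 24351604), known for the repolarising current of the heart and also present in neurons, was at 7.93 and 8.13 CPM with FGF2 and 20.1 and 16.7 CPM without FGF2 (log2 fold change -1.19 ± 0.17 (SE), adjusted p = 3.25e-11). Kcnh4, an ELK channel, was at 2.98 and 3.05 CPM with FGF2 and 6.76 and 5.82 CPM without FGF2 and fell to a like degree (log2 fold change -1.06 ± 0.29 (SE), adjusted p = 0.00111). Kcnh5, an EAG channel and the gene of the group with the highest length-scaled level, lay the other way without passing, at 24.6 and 24.3 CPM with FGF2 and 19.8 and 22.4 CPM without FGF2 (log2 fold change 0.21, adjusted p = 0.189). Kcnh1 and Kcnh3 fell, and Kcnh6, Kcnh7 and Kcnh8 did not pass.

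The inward rectifiers held the Kcn gene with the highest length-scaled level in the cultures. Kcnj10 (ENSMUSG00000044708, chromosome 1, 172341210 to 172374085) was at 286 and 271 CPM with FGF2 and 280.5 and 275 CPM without FGF2, and the groups overlapped (log2 fold change 0.0034 ± 0.044 (SE), adjusted p = 0.963; 95% interval -0.083 to 0.09). Its length-scaled level, 51.5 ± 2.02 with FGF2 and 51.4 ± 0.721 without FGF2 CPM per kilobase (SD, n = 2), was the highest of all 94 members in both groups. No difference of Kcnj10 beyond this interval was seen while 7 of 8 astrocyte markers rose and their sum was 1.66 times as high with FGF2. Gfap held much of that sum, with 5793 of 12073 CPM with FGF2 and 2776 of 7272 CPM without it. The median log2 fold change of the 8 markers was 0.45, from -0.18 for S100b, which did not pass, to 1.06 for Gfap. The sign of Kcnj10 was negative under upper quartile and total count scaling (log2 fold change -0.023 and -0.014). Kcnj16, which pairs with Kcnj10 in glia, was at 20.7 and 20.5 CPM with FGF2 and 30.0 and 24.8 CPM without FGF2 and fell (log2 fold change -0.41 ± 0.13 (SE), adjusted p = 0.00383), but not with DESeq2 (adjusted p = 0.081) or without noFGF2 replicate 1 (adjusted p = 0.210 by edgeR).

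The inward rectifiers with the largest changes were low. Kcnj12, which encodes the strong rectifier Kir2.2, was at 1.76 and 1.42 CPM with FGF2 and 4.38 and 4.43 CPM without FGF2 (log2 fold change -1.47 ± 0.37 (SE), adjusted p = 0.000378). Kcnj11, the pore of the ATP-sensitive channel, was at 2.98 and 2.54 CPM with FGF2 and 6.76 and 5.17 CPM without FGF2 (log2 fold change -1.11 ± 0.30 (SE), adjusted p = 0.000893) and did not pass without noFGF2 replicate 1 (log2 fold change -0.91, adjusted p = 0.0648 by edgeR). These falls were large in fold and small in CPM. Kcnj13 had only 18 and 16 counts in the FGF2 libraries and 4 and 9 in the others, or 1.98 and 1.63 CPM with FGF2 and 0.381 and 0.831 CPM without FGF2 (log2 fold change 1.55 ± 0.58 (SE), adjusted p = 0.0223), and 49.1% of its exonic length is shared with Gigyf2 on the opposite strand. Its rise did not pass with DESeq2 (adjusted p = 0.153), without either FGF2 replicate (adjusted p = 0.182 without replicate 1 and 0.0803 without replicate 2) or without noFGF2 replicate 1 (adjusted p = 0.280). Kcnj4 fell, Kcnj2, Kcnj3, Kcnj6 and Kcnj9 did not pass, and 5 further genes of the group were not measured.

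Of the tandem-pore-domain genes, which encode background conductances, 1 of 8 tested rose, 2 fell and 5 did not pass. Kcnk2 (TREK-1, ENSMUSG00000037624, chromosome 1, 189207930 to 189402273), a channel opened by stretch and lipids, was at 137 and 127 CPM with FGF2 and 106 and 101 CPM without FGF2 and rose (log2 fold change 0.35 ± 0.062 (SE), adjusted p = 1.03e-07). Kcnk1 (TWIK-1), in contrast, was at 22.6 and 28.1 CPM with FGF2 and 35.7 and 34.7 CPM without FGF2 and fell (log2 fold change -0.47 ± 0.11 (SE), adjusted p = 0.00015). Kcnk10 (TREK-2), a close relative of Kcnk2, did not pass, at 75.5 and 77.1 CPM with FGF2 and 79.4 and 75.9 CPM without FGF2 (log2 fold change -0.025, adjusted p = 0.828, 95% interval -0.17 to 0.12), so that the interval of Kcnk10 lies below that of Kcnk2 (0.23 to 0.47). By length-scaled level, Kcnk2 took 52.1% and 46.8% of the summed tandem-pore-domain level with FGF2 and 37.8% and 37.4% without it, a share chosen after the values were seen. The summed level of the group was 54.1 ± 1.02 CPM per kilobase with FGF2 and 55.7 ± 1.41 without it (SD, n = 2), and the libraries of the groups overlapped. Of the exonic length of Kcnk2, 12.2% is shared with an antisense gene, A430027H14Rik.

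Channels opened by calcium or sodium fell or did not pass, and none rose. Kcnma1, the pore of the large-conductance BK channel, was at 184 and 190.4 CPM with FGF2 and 239 and 246 CPM without FGF2 and fell (log2 fold change -0.37 ± 0.048 (SE), adjusted p = 1.41e-13), as did its subunit Kcnmb4 and the sodium-activated channel gene Kcnt1. Kcnn3, a small-conductance SK channel that opens after bursts of calcium entry, was at 95.8 and 88.3 CPM with FGF2 and 121 and 117 CPM without FGF2 (log2 fold change -0.37 ± 0.065 (SE), adjusted p = 1.01e-07). Its relative Kcnn2 was at 45.0 and 44.5 CPM with FGF2 and 51.4 and 48.0 CPM without FGF2 and did not pass (log2 fold change -0.15, adjusted p = 0.184). In all, 3 of 7 BK and sodium-activated genes and 1 of 4 SK and IK genes fell, and the latter share is near the 19.9% of all genes tested.

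**Figure D4:**
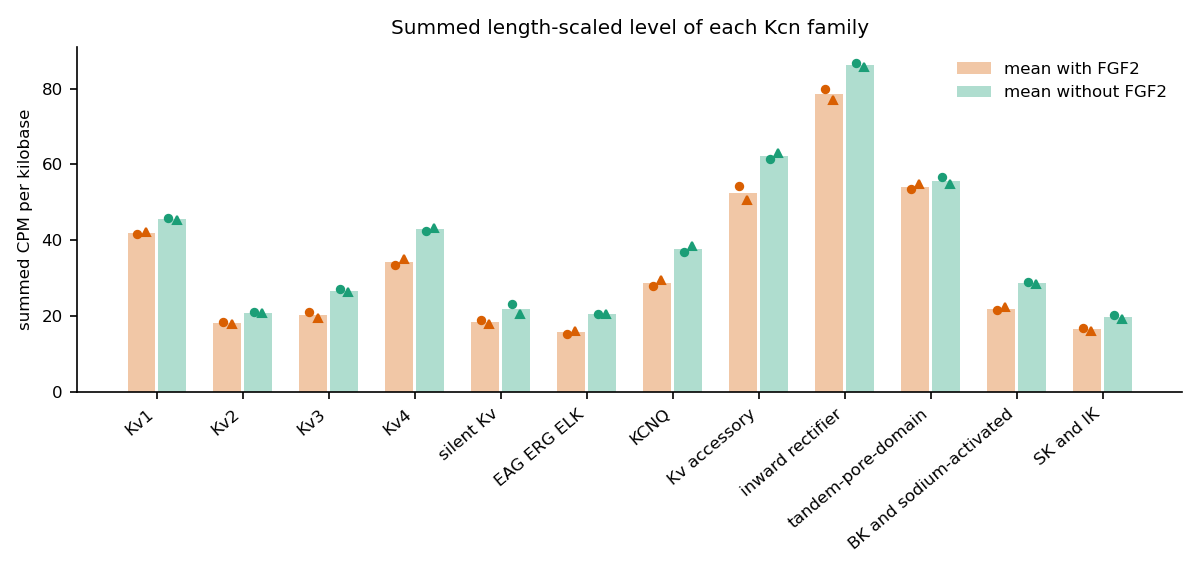
Summed length-scaled level (CPM per kilobase of exon) of each of the 12 Kcn families; bars are the means of 2 libraries with FGF2 (orange) or without it (green), and points are the libraries. The libraries with FGF2 lie below those without for 11 families and overlap with them for the tandem-pore-domain genes. Of all single genes tested, 33.4% lay below in this way, and the count of families was not tested. It depends on the scale: by summed CPM the Kv1 libraries overlapped too (274 and 264 with FGF2, 267 and 254 without).

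By length-scaled level, the order of the leading members differed somewhat between the groups. Without FGF2, Kcnj10 took 10.97% of the summed Kcn level and came before Kcnd3 (25.1 CPM per kilobase), Kcnk2 (20.9) and Kcnip3 (19.8). With FGF2, Kcnj10 took 12.86% and was followed by Kcnk2 (26.7 CPM per kilobase), Kcnd3 (19.5), Kcnip3 (17.8) and Kcna6 (15.7). Without FGF2 the libraries of Kcnip3 (19.1 and 20.6 CPM per kilobase) overlapped those of Kcnk2, so the order of these neighbours is within their spread. At the low end, 6 of the 20 members that were not measured had no count in any library: Kcnmb3, Kcnj1, Kcna7, Kcnv2, Kcnk15 and Kcnk18. The other 14 were Kcnj5, Kcnj8, Kcnj14, Kcnj15, Kcnq1, Kcne1, Kcne2, Kcne3, Kcne4, Kcna10, Kcng4, Kcnk6, Kcnk7 and Kcnk16, and the highest of them, Kcng4, reached 10 counts. When the test was run with no expression filter, these 14 could be fitted, and Kcng4, with 1 and 0 counts in the FGF2 libraries and 10 and 6 in the others, was lower (adjusted p = 0.033 by edgeR), whereas none of the others passed. Kcnmb4, lower in the filtered test, did not pass there. Just above this limit, Kcnk4 and Kcnmb1 reached 12 counts. Kcnk5 was measured but did not pass the expression filter, its counts being 5 and 9 in the FGF2 libraries and 10 and 24 in the others.

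Genes that work with potassium channels were read from a list of 30 partners, of which 26 were tested, 17 fell, 4 rose and 5 did not pass, with a median log2 fold change of -0.46. Over all genes tested 19.9% fell and 20.7% rose, with a median of -0.00082. The list was chosen with earlier results of these data known, so its counts are a description and no independent test. The BK subunit Lrrc55 had the largest fall, at 15.5 and 14.9 CPM with FGF2 and 34.9 and 32.8 CPM without FGF2 (log2 fold change -1.15 ± 0.13 (SE), adjusted p = 3.01e-18). Slc12a5 (KCC2), the neuronal potassium-chloride exporter, was at 78.8 and 76.1 CPM with FGF2 and 141 and 151 CPM without FGF2 (log2 fold change -0.92 ± 0.064 (SE), adjusted p = 2.55e-44), whereas Slc12a2 (NKCC1), the importer, was at 71.5 and 81.5 CPM with FGF2 and 57.2 and 55.3 CPM without FGF2 and rose (log2 fold change 0.45 ± 0.079 (SE), adjusted p = 1.32e-07). Of the beta subunits of the sodium-potassium pump, Atp1b2 rose (log2 fold change 0.30) and Atp1b1 fell (-0.53). Aqp4, the astrocytic water channel, which is also on the astrocyte marker list, was at 1620.2 and 1691 CPM with FGF2 and 964 and 970.3 CPM without FGF2 (log2 fold change 0.78 ± 0.032 (SE), adjusted p = 2.13e-127).

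Partners that hold channels in place or shape their gating mostly fell. The Kv4 partners Dpp6 and Dpp10 fell (log2 fold changes -0.55 and -0.61), as did Cntnap2 and Cntn2 (-0.60 and -0.63), which cluster Kv1 channels along the axon, Adam22 and Lgi1 (-0.36 and -0.23), and Ank3 (-0.51), the scaffold of the axon initial segment that anchors KCNQ channels. Hcn2, Hcn3 and Hcn4, which encode hyperpolarisation-activated cation channels, fell as well (-0.77, -0.41 and -0.67). Abcc8, the regulatory subunit that joins Kcnj11, was at 6.72 and 9.56 CPM with FGF2 and 11.4 and 13.7 CPM without FGF2 and fell (log2 fold change -0.62, adjusted p = 0.00371). Amigo1, a partner of Kv2 channels, fell (-0.30), and Vapa, Vapb and Atp1b3 did not pass (log2 fold changes -0.068, -0.067 and -0.14). Abcc9, Lrrc26, Lrrc38 and Lrrc52 were not tested.

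Gene counts totalled 9166432 to 10799886 per library, and the TMM factors lay between 0.992 and 1.01. Feedback genes of FGF signalling followed the treatment in 6 of 7 cases, Spry4 being at 31.2 and 30.5 CPM with FGF2 and 15.6 and 14.3 CPM without FGF2, and Etv4 fell. At this depth 3 counts correspond to 0.278 to 0.327 CPM before TMM scaling.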

How the data were processed

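RNA of 4 bulk libraries was analysed, 2 per group. The authors mapped reads to mm10 with HISAT2 2.1.0, kept those of high mapping quality and deposited raw counts per gene from HTSeq 0.11.2. The annotation release and the strand setting are not given in the sources used here. Identifiers were matched to GENCODE M21 (55240 of 55421). Kcn symbols of 5 noncoding genes were left out. Read pairs in no feature made up 43.2% to 45.9% of each library, and they were left out of library sizes.

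For the test, edgeR 4.0.16 (R 4.3.3) fitted quasi-likelihood models to the counts (TMM, filter by group, robust), with Benjamini-Hochberg adjustment over 17144 genes. CPM is scaled with TMM, and the length-scaled level is CPM per kilobase of merged exons. DESeq2 1.42.0, limma-voom (limma 3.58.1), other scalings and filters, the replicate number as a block, each library left out and a threshold of 0.01 were alternatives. The fits were tested on simulated data.

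The text names called Kcn genes with a mean of at least 1 CPM (10 largest changes each way), the gene with the highest length-scaled level of each of 12 families, and 17 set genes (among them Kcna1, Kcna2, Kcnc1, Kcnc2, Kcnd2, Kcnd3, Kcnip4, Kcnj10, Kcnj16, Kcnk1, Kcnk2, Kcnk10, Kcnma1, Kcnn2 and Kcnq3); partners were open to naming, and ratios and the genes nearest the count limit were added after their values were seen. Other members appear in counts or lists, and a few genes that these rules take are not reported here. Members and lists were chosen with earlier results of these data known.

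Replicates differed by more than sampling noise (chi-square per degree of freedom 2.28 with FGF2 and 1.76 without). Exons of 25 of the 73 tested members overlap another gene, 23 of them on the opposite strand only. Transcripts were aligned to those of other genes with BLAST 2.17.0, and the longest near-identical stretch of a tested member in a gene that does not overlap it was 144 bases.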

Additional observations from a re-analysis of the deposited data

How the results depend on the processing

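When no library was left out, the counts of Kcn genes lower with FGF2 ranged from 24 (DESeq2) to 31 (upper quartile scaling), beside 29. Over all 17144 genes tested, 2143 were lower with DESeq2, 3713 with upper quartile scaling and 3408 in the main analysis. The count higher was 5 in the main analysis and 3 with DESeq2, beside 3541 and 2313 of all 17144 genes. With DESeq2, all 24 genes were among the 29. With the replicate number as a block, 29 Kcn genes were lower and 5 higher, beside 3338 and 3476 of all 17144 genes. The block changed no other call among the named genes. Same-numbered libraries did not deviate together (correlation 0.0021 over 17144 genes), and the labels do not say that the number marks a pair. The median log2 fold change of the Kcn genes ranged from -0.36 (without noFGF2 replicate 1) to -0.28 (without noFGF2 replicate 2). With no expression filter 29 Kcn genes were lower, of which 28 were among the 29, beside 3139 of all 29100 genes. Partner genes lower ranged from 13 (DESeq2) to 17, and the count higher stayed at 4. Kcnj10 turned to -0.023 with upper quartile scaling and -0.014 with total count scaling, and with a library left out it ranged from -0.040 to 0.041. Kcnip4 ranged from -0.34 to 0.065 and Kcnk10 from -0.061 to 0.0028 with a library left out, so both crossed 0 without having passed a test. Of 33 named Kcn genes, 28 kept direction and side of the threshold in every alternative that used all libraries, and 24 also with each library left out. With 2 libraries per group, and 10 or fewer counts for 20 members, small changes of low genes are beyond these data. The cause of each difference between settings was not tested.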
